A study of Mus musculus with 12 samples.

Results

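The 10 genes described here control how pyruvate enters mitochondria and whether it is oxidised there. They were the rows of the deposited table whose symbol was Pdk1, Pdk2, Pdk3, Pdk4, Pdha1, Pdhb, Dlat, Pdp1, Mpc1 or Mpc2, and all 10 were found among 56748 genes. They were read in 12 mouse libraries, 3 for each of 4 groups, from the retina of littermates aged 2 weeks. The control group (Het) was RiboTag; Shp2 fl/+; i75-Rod-Cre and the knockout group (KO) was RiboTag; Shp2 fl/fl; i75-Rod-Cre, where Shp2 is the phosphatase encoded by Ptpn11. Every animal therefore carried the Cre transgene, driven in rods by a rhodopsin promoter, and the RiboTag allele, which places an HA tag on the ribosomal protein Rpl22 in cells that express Cre. Control titles read wt although the genotype field gives a heterozygote, so control rods carried 1 floxed allele of Shp2 with the same Cre. For each genotype, RNA captured on anti-HA beads by translating ribosome affinity purification (TRAP) is called rods below, and RNA of the unpurified lysate is called retina.

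Glycolysis ends in pyruvate, which the mitochondrial pyruvate carrier, a complex of Mpc1 and Mpc2, moves across the inner mitochondrial membrane. Inside, the pyruvate dehydrogenase complex turns it into acetyl-CoA: Pdha1 and Pdhb are the alpha and beta subunits of its E1 enzyme, and Dlat is its E2 core. The kinases Pdk1, Pdk2, Pdk3 and Pdk4 phosphorylate the alpha subunit and switch the complex off, and the phosphatase Pdp1 reverses this. Photoreceptors are known for converting much of their glucose to lactate even when oxygen is present, which makes this branch point of interest in rods.

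Values below are scaled values, the deposited numbers adjusted to a common library size by the trimmed mean of M values (TMM), unless another unit is named. A gene was called different at an adjusted p below 0.05 (limma with Benjamini-Hochberg adjustment over all genes tested) and an absolute log2 fold change above 0.5. Library totals lay between 14525527 and 14527992 in the retina and between 16263948 and 16265259 in rods, since the deposited numbers appear to have been rescaled, and the reads behind them were estimated at 9990000 to 25300000 per library. The 10 rod markers took 15% to 17.4% of the rod totals and 4.88% to 6.12% of the retina totals. The 9 Muller glia markers took 0.0103% to 0.0191% in rods and 0.332% to 0.481% in the retina, and none of them was at 0 in every library of a group. Lens markers varied from 0.000778% to 4.92% among the retina libraries, with KO retina replicate 3 highest and Het retina replicate 1 lowest. Ptpn11 had 2673.6, 2669.7 and 2623.4 in rods of Het animals and 2045.3, 2559.7 and 2289.8 in rods of KO animals, so every KO library was lower, but the log2 difference of -0.23 (SE 0.09, limma adjusted p = 0.0775) was not called. Gene totals add up all exons of Ptpn11 and cannot isolate the floxed part.

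**Figure D1:**
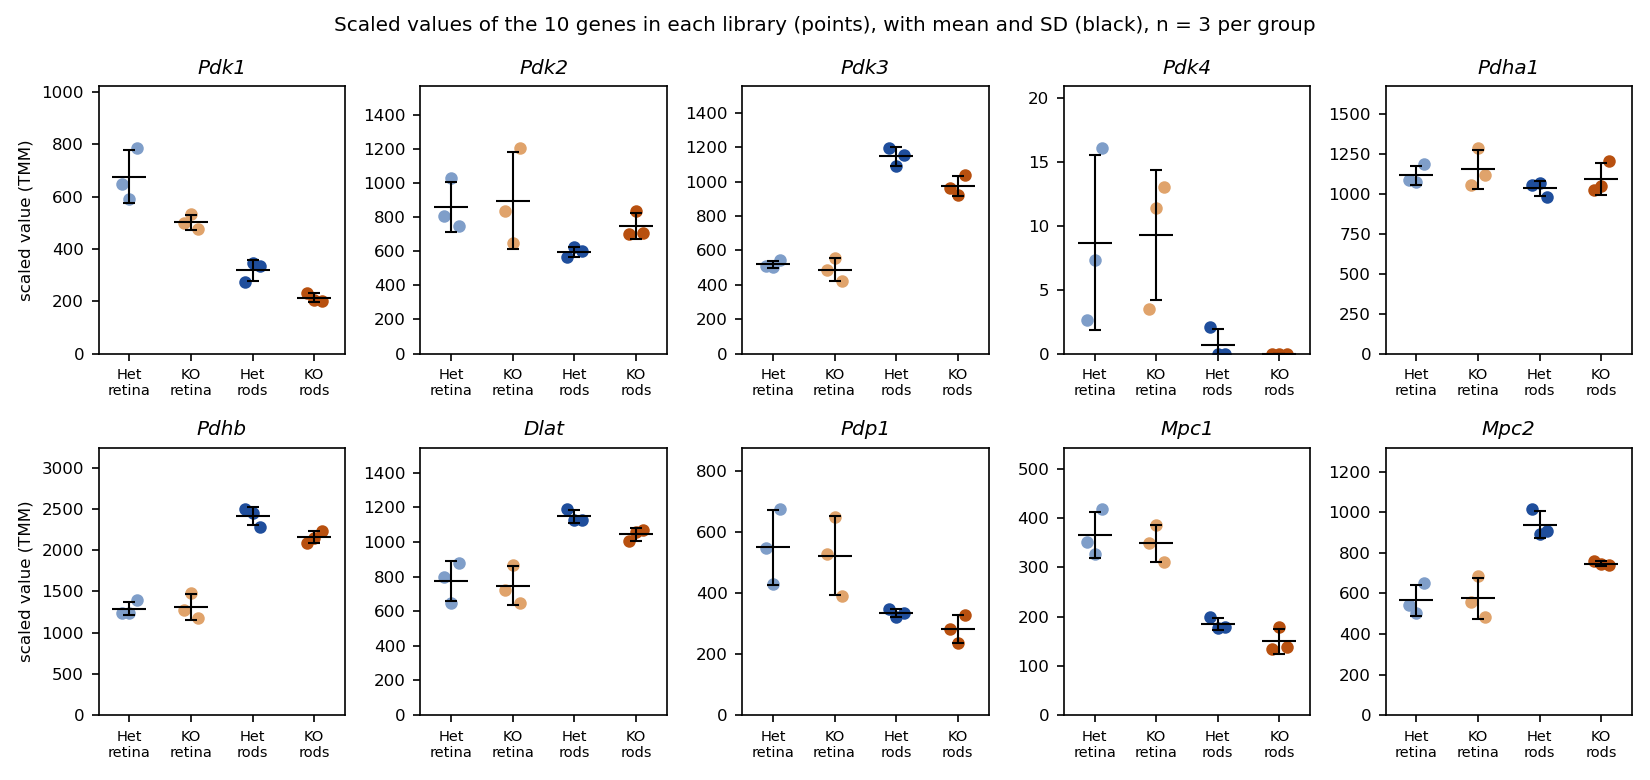
Scaled values (TMM, linear axis from 0) of the 10 genes in each library, as points, with the mean and SD of each group in black (n = 3). Pdk3, Pdhb, Dlat and Mpc2 lie higher in rods than in the retina in both genotypes, whereas Pdk1, Pdp1 and Mpc1 lie lower.

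The first comparison set rods against the retina of the same genotype, that is, ribosome-bound mRNA of rods with RNA of the whole tissue. In Het animals, 8 of the 9 genes that passed the filter on low values were called: Pdk3, Pdhb, Mpc2 and Dlat were higher in rods, and Pdk1, Mpc1, Pdp1 and Pdk2 were lower. Over all 16110 genes tested, 22.7% were called higher in rods and 36.4% lower, so calls in either direction were common and the count for these genes is read against 59% of all genes. In KO animals 5 of the 9 were called, Pdk3 and Pdhb higher and Pdk1, Mpc1 and Pdp1 lower, against 26.9% of 16121 genes called higher and 36.1% lower. The fractions differ in cell type and also in kind of RNA, ribosome-bound against total, and these cannot be told apart here. Likewise, in whole retina fewer cells of a type and less RNA per cell cannot be told apart.

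The 4 kinases went different ways. Pdk3 (ENSMUSG00000035232) lies on chromosome X, 93764607 to 93832201 on the minus strand of GRCm38. In Het it was at 1196.8, 1089.1 and 1155.7 in rods against 510.0, 501.4 and 542.7 in the retina. In KO it was at 964.3, 921.4 and 1037.4 in rods against 486.7, 557.5 and 421.4 in the retina. Every rod library was above every retina library, where 29.5% of all genes tested were higher in rods without overlap in Het and 34.1% in KO. The log2 difference was 1.14 (SE 0.11, limma adjusted p = 3.71e-05) in Het and 0.99 (SE 0.14, limma adjusted p = 0.000259) in KO, the largest rise in rods among the members in each genotype.

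Pdk1 (ENSMUSG00000006494; GRCm38 chromosome 2, 71873224 to 71903858, plus strand), a kinase best known as a target of hypoxia signalling, was the reverse of Pdk3. Its values were 272.6, 345.9 and 336.7 in Het rods against 649.7, 590.4 and 787.3 in Het retina. In KO animals they were 232.2, 205.8 and 202.1 in rods against 497.9, 533.1 and 475.4 in the retina. The groups did not overlap in either genotype, where 39.3% of all genes were lower in rods without overlap in Het and 38.9% in KO. The log2 differences were -1.08 (SE 0.16, limma adjusted p = 0.000471) and -1.23 (SE 0.14, limma adjusted p = 7.04e-05). Pdk1 was at 202.1 or more in every rod library. All 9 Muller glia markers were called lower in rods, with a median log2 difference of -4.85 in Het and -4.66 in KO. All 8 cone markers were called lower too, but with medians of only -1.075 in Het and -0.842 in KO. How much of the Pdk1 signal in rods comes from other cells was not tested.

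Pdk2 (ENSMUSG00000038967; GRCm38 chromosome 11, 95026258 to 95041354, minus strand), a broadly expressed kinase, was at 566.4, 625.0 and 603.2 in Het rods and 806.6, 1029.4 and 749.8 in Het retina. The Het groups did not overlap and the log2 difference of -0.51 (SE 0.15, limma adjusted p = 0.0143) lay just past the fold limit. The call was lost at -0.45, -0.35 and -0.50 without Het retina replicate 1, 2 or 3, at -0.47 without Het rods replicate 1, at -0.49 with relative log expression (RLE) scaling in place of TMM, and at -0.23 once the trend with GC content was removed. In KO animals Pdk2 ran from 703.8 to 837.7 in rods and from 649.3 to 1208.5 in the retina, so the groups overlapped and the log2 difference was -0.22 (SE 0.21, limma adjusted p = 0.359).

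Pdk4 (ENSMUSG00000019577; GRCm38 chromosome 6, 5483351 to 5496309, minus strand), the kinase induced by fasting and fatty acids in other tissues, was listed at very low values. The deposited values were 3, 8 and 18 in Het retina and 4, 13 and 14 in KO retina, while Het rods had 2, 0 and 0 and all 3 KO rod libraries were listed at 0. It did not pass the filter in either comparison of rods with retina, and no fold is given. At the estimated depths a value of 0 in the KO rod libraries allows a share of up to 1.6e-05% to 2.5e-05% of the reads, counting error only.

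The other face of this shift is the make-up of the kinase mRNA pool within each library, which needs no scaling between libraries. Values were divided by the merged exon length of each gene in kilobases and expressed as a share of the sum over the 4 kinases. In rods Pdk3 made up 68.5%, 63.7% and 65.9% of the pool in Het and 59.9%, 55.3% and 61.9% in KO. It made up 37.0%, 32.7% and 38.2% in Het retina and 36.6%, 44.0% and 26.9% in KO retina. No retina library reached the lowest rod library.

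Pdk2 held the next place in rods and, by group mean, the leading place in the retina. Its share was 27.9% ± 1.68 in Het rods, 36.7% ± 3.48 in KO rods, 48.1% ± 5.83 in Het retina and 51.6% ± 10.5 in KO retina (SD, n = 3 each). In KO retina replicate 2 Pdk3 was ahead, with 44.0% against 41.5% for Pdk2. Pdk1 had 6.04% ± 0.80 in Het rods, 4.26% ± 0.42 in KO rods, 15.5% ± 2.79 in Het retina and 12.1% ± 1.94 in KO retina (SD, n = 3 each). Pdk4 never exceeded 0.825%. In rods the order by level per kilobase was Pdk3, Pdk2, Pdk1 and Pdk4, with no overlap between neighbours in either genotype. In the retina Pdk2 came before Pdk3 without overlap in Het (237 to 325 against 196 to 212 per kilobase), whereas in KO the ranges overlapped (205 to 382 against 165 to 218 per kilobase).

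Across both genotypes, the Pdk3 share was 26.6 percentage points higher in rods, the Pdk2 share differed by -17.6 points, and the Pdk1 share differed by -8.61 points. A 2-sided exact permutation test that exchanged fractions within each genotype gave p = 0.005 for each of the 4 kinases, the smallest value its 400 arrangements allow, and 0.005 after adjustment over the 4. When fractions were exchanged only between libraries of the same replicate number, the exact permutation p was 0.03125 for each, before and after adjustment. The Pdk4 difference of -0.445 points rests on deposited values of 18 or less. With the length of the longest transcript in place of the merged exon length, Pdk3 held 59.9% to 64.9% in Het rods and 29.2% to 34.4% in Het retina.

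**Figure D2:**
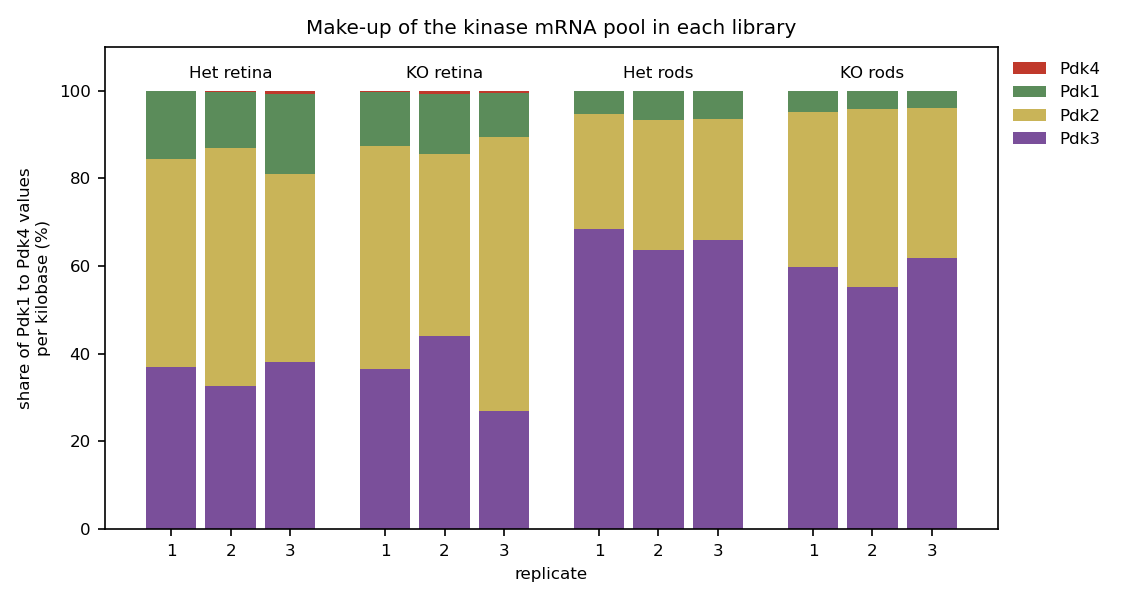
Share of each kinase in the summed Pdk1 to Pdk4 values per kilobase of merged exons, in percent, for each of the 12 libraries. Pdk3 fills 55.3% to 68.5% of the bar in the 6 rod libraries and 26.9% to 44.0% in the 6 retina libraries, and Pdk4 is barely visible.

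The sequences just before the starts of the 3 kinases that passed the filter in rods against retina are shown because these genes differ in direction between the fractions. They come from RefSeq on GRCm38.p6, are read 5′ to 3′ on the strand of the gene, and stop at the start site or, for Pdk3, at most 10 bases beyond the outermost start in GENCODE. Capitals mark every match on either strand to ACGTG or GCGTG, the 2 forms of the core letters of the element bound by hypoxia-inducible factors, of which ACGTG also lies inside the E-box CACGTG. Pdk1 and Pdk2 have a further listed start, which is not shown.
Pdk1 (chr2:71872974-71873223, plus strand): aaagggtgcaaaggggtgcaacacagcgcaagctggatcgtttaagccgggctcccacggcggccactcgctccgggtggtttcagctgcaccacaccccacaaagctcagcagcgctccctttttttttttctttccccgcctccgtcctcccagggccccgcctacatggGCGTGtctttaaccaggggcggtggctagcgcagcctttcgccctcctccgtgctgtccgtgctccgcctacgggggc
Pdk2 (chr11:95041372-95041621, minus strand): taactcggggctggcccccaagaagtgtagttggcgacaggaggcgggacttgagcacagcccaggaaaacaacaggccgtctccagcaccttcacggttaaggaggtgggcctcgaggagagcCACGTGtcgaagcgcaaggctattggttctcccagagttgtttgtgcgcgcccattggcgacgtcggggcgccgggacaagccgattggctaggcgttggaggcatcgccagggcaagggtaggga
Pdk3 (chrX:93832192-93832400, minus strand): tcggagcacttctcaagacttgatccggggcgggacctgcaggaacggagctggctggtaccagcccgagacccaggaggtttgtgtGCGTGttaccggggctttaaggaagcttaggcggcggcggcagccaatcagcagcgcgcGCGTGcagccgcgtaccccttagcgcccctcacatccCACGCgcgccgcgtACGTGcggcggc

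In these windows Pdk1 held GCGTG, Pdk2 held ACGTG and Pdk3 held both. Among the 250 bases before the start, 16.6% of 32851 RefSeq promoters held ACGTG or its reverse complement, and 3 of the 9 members with a promoter entry did (Pdk2, Pdk3 and Pdhb). GCGTG or its reverse complement was in 28.2% of all promoters and in 7 of the 9 members, Pdk2 and Dlat being without it. The shares of all promoters are by entry, whereas a member was counted if any of its entries matched, so the units differ. Pdk1, Pdk2 and Mpc1 had 2 entries each, of which 1 held neither form. The letters TAATCC, a core bound by the photoreceptor factor Crx, were in 6.25% of all promoters and in 0 of the 9. A match is a description of letters only, and binding was not measured.

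The target of the kinases, the E1 enzyme, had subunits that differed from each other. Pdhb (ENSMUSG00000021748; GRCm38 chromosome 14, 8165996 to 8173025, minus strand) was at 2496.8, 2447.5 and 2285.6 in Het rods and 1243.8, 1243.3 and 1389.9 in Het retina. In KO animals it was at 2091.3, 2151.6 and 2235.2 in rods and 1278.2, 1476.9 and 1171.3 in the retina. Rods were above the retina without overlap, by a log2 difference of 0.90 (SE 0.11, limma adjusted p = 0.000113) in Het and 0.72 (SE 0.12, limma adjusted p = 0.000773) in KO.

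Pdha1 (ENSMUSG00000031299; GRCm38 chromosome X, 160122209 to 160138413, minus strand) was not called. It was at 1055.2, 1063.9 and 978.8 in Het rods against 1085.2, 1074.4 and 1183.7 in Het retina, lower in every rod library by a small margin, a log2 difference of -0.11 (SE 0.11, limma adjusted p = 0.406), and at -0.08 (SE 0.13, limma adjusted p = 0.58) in KO. It shares 603 exonic bases with Map3k15 on the other strand. The libraries were made with a non-stranded kit, so a few of the reads counted for Pdha1 could belong there. Within each library the log2 ratio of Pdha1 to Pdhb, each per kilobase, was -1.17 ± 0.02 in Het rods and -0.16 ± 0.02 in Het retina, and -0.94 ± 0.08 in KO rods and -0.13 ± 0.11 in KO retina (SD, n = 3 each). The rod value was lower by a log2 difference of -0.91 (2-sided exact permutation p = 0.005, adjusted p = 0.0067 over 4 ratios). This difference does not depend on the lengths used, whereas the level of the ratio does.

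Dlat (ENSMUSG00000000168; GRCm38 chromosome 9, 50634633 to 50659780, minus strand), the E2 core that passes the acetyl group to coenzyme A, was at 1189.3, 1129.6 and 1124.5 in Het rods and 798.0, 646.5 and 879.3 in Het retina. Rods were higher without overlap, by 0.58 (SE 0.14, limma adjusted p = 0.00608) on the log2 scale. The call was lost at 0.48 without Het retina replicate 2 and at 0.41 once the GC trend was removed. In KO animals Dlat was at 1003.2, 1056.7 and 1071.1 in rods and 724.0, 869.5 and 649.4 in the retina. The groups did not overlap there either, but the log2 difference of 0.48 (SE 0.14, limma adjusted p = 0.0119) stayed under the fold limit, and it was called at 0.62 without KO retina replicate 2 and at 0.51 without KO rods replicate 1.

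Pdp1 (ENSMUSG00000049225; GRCm38 chromosome 4, 11958184 to 11966452, minus strand), the phosphatase that opposes the kinases, was at 349.2, 321.8 and 335.6 in Het rods and 546.9, 428.8 and 674.9 in Het retina. In KO animals it was at 280.6, 236.9 and 328.8 in rods and 527.4, 650.2 and 391.7 in the retina. The rod libraries were lower without overlap in both genotypes. The log2 differences were -0.69 (SE 0.18, limma adjusted p = 0.00942) and -0.87 (SE 0.21, limma adjusted p = 0.00595). Without Het retina replicate 1 or 3 the Het difference was -0.58 or -0.42 and no longer called.

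Kinases were set against Pdp1 within each library as the log2 ratio of the 4 kinases summed per kilobase to Pdp1 per kilobase. In rods it was 3.13, 3.22 and 3.20 in Het and 3.33, 3.62 and 3.16 in KO. It was 2.15, 2.65 and 1.89 in Het retina and 2.15, 1.78 and 2.81 in KO retina. Every rod library was above every retina library, by a log2 difference of 1.04, or 2.05-fold (2-sided exact permutation p = 0.005, adjusted p = 0.0067 over 4 ratios). This ratio uses Pdp1 alone. Pdp2, the other catalytic phosphatase subunit, ran the other way, with 690 ± 51.4 in Het rods and 436 ± 58.9 in Het retina (SD, n = 3 each). With Pdp2 added to Pdp1, an alternative chosen after seeing the data, the log2 ratio was 1.79 ± 0.08 in Het rods and 1.51 ± 0.21 in Het retina (SD, n = 3 each), and the difference of 0.25 over both genotypes did not pass (2-sided exact permutation p = 0.085). Against the mean of Pdha1, Pdhb and Dlat per kilobase, the same kinase sum was 0.85 ± 0.07 in Het rods and 1.10 ± 0.16 in Het retina (SD, n = 3 each, log2), and the difference of -0.21 between rods and retina over both genotypes did not pass (2-sided exact permutation p = 0.07). It passed at -0.29 without KO retina replicate 2, and at -0.11 with the GC trend removed (2-sided exact permutation p = 0.035, adjusted p = 0.035). For ratios that use the kinase sum, the difference between rods and retina depends on the gene lengths used, as does the level. Merged exons of Pdhb, for example, add up to 3861 bases and its longest transcript to 1513. These ratios were not tested with the longest transcript.

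The 2 carrier subunits, which are needed together for transport, also went opposite ways. Mpc2 (ENSMUSG00000026568; GRCm38 chromosome 1, 165460637 to 165481214, plus strand) was at 1015.8, 895.4 and 907.5 in Het rods and 540.9, 504.1 and 652.5 in Het retina, without overlap, a log2 difference of 0.74 (SE 0.14, limma adjusted p = 0.00159). In KO animals it was at 760.4, 744.3 and 738.9 in rods and 560.3, 685.1 and 484.7 in the retina. The rod libraries were again higher without overlap, but the log2 difference of 0.38 (SE 0.15, limma adjusted p = 0.0471) was under the fold limit, and it was called at 0.53 without KO retina replicate 2.

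Mpc1 (ENSMUSG00000023861; GRCm38 chromosome 17, 8282904 to 8297661, plus strand) was at 199.1, 176.2 and 179.1 in Het rods and 350.6, 326.9 and 417.8 in Het retina. In KO animals it was at 133.2, 179.5 and 137.1 in rods and 349.0, 386.3 and 309.8 in the retina. Rods were lower without overlap, by log2 differences of -0.97 (SE 0.16, limma adjusted p = 0.000792) in Het and -1.22 (SE 0.18, limma adjusted p = 0.000362) in KO. The log2 ratio of Mpc1 to Mpc2 per kilobase of merged exons was -0.52, -0.51 and -0.51 in Het rods. In Het retina it was 1.20, 1.20 and 1.18. Between rods and retina over both genotypes it differed by -1.65 (2-sided exact permutation p = 0.005, adjusted p = 0.0067 over 4 ratios). This difference does not depend on the lengths used, whereas the level and the sign of the ratio do. Merged exons of Mpc2 add up to 7344 bases and its longest transcript to 1025. Per kilobase of the longest transcript, Mpc1 was at 380 and Mpc2 at 552 in Het retina, so Mpc2 was then the higher there too.

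The Mpc1 values are uncertain in level. A processed pseudogene, Mpc1-ps, has 330 bases of which 329 match a Mpc1 transcript (99.7% identity), so the counting could split reads between them. Mpc1-ps was itself at 110.7, 82.1 and 84.2 in Het rods and 191.2, 179.1 and 209.8 in Het retina, so it too was lower in rods in every library. In KO animals it was at 80.2, 76.6 and 62.7 in rods and 174.9, 169.5 and 185.1 in the retina. Mpc1 also shares 480 exonic bases with 4930506C21Rik on the other strand, which non-stranded libraries cannot tell apart.

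**Figure D3:**
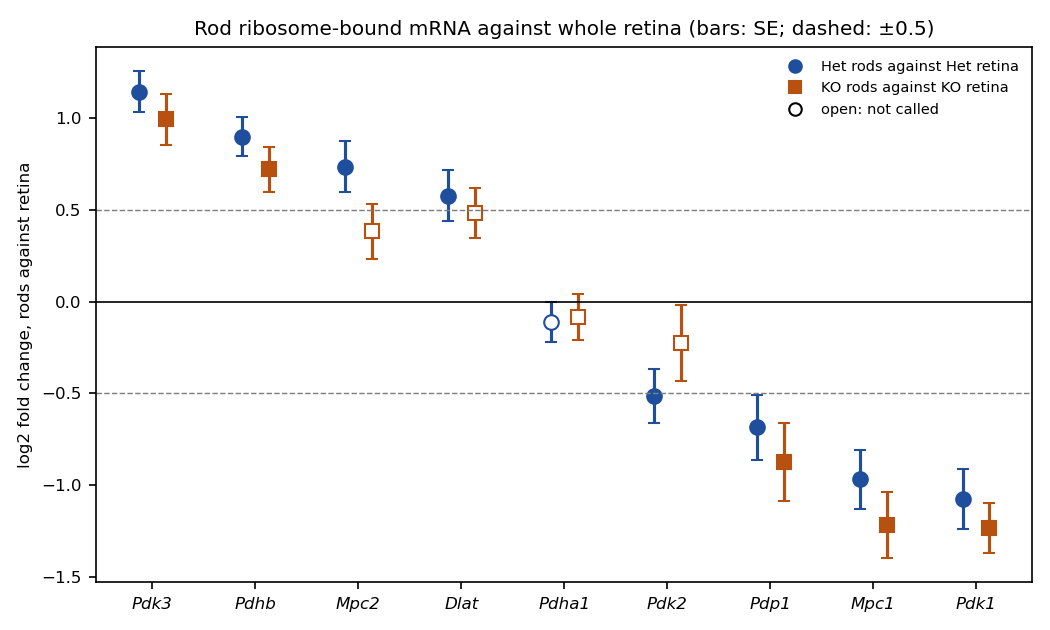
Log2 fold change of rods against retina of the same genotype for the 9 genes that passed the filter, with bars for the SE. Filled symbols were called, open symbols were not, and dashed lines mark the fold limit of 0.5. Pdk3 leads in both genotypes (1.14 and 0.99) and Pdk1 is lowest (-1.08 and -1.23).

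These directions are relative to how the fractions are scaled. The median log2 difference over all genes was -0.08 in Het with TMM and -0.51 when libraries were scaled to equal totals, and the split of calls over all genes moved from 3650 higher and 5856 lower to 1168 higher and 7399 lower (7.25% and 45.9%). In KO the split moved from 4341 higher and 5813 lower to 1144 higher and 7846 lower (7.1% and 48.7%). With equal totals in Het, Pdk3 was still called higher at 0.70, but Pdhb (0.46), Mpc2 (0.29) and Dlat (0.14) were not called and Pdha1 was called lower at -0.55. In KO with equal totals, Pdk3 (0.43) and Pdhb (0.16) were not called, Pdk2 (-0.79) and Pdha1 (-0.64) became called lower, and Dlat (-0.08) and Mpc2 (-0.18) changed sign. The kinase shares and the within-library ratios carry no such scaling.

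Other genes of the pathway were read from a list of 14 partners of the complex and of its lipoyl cofactor. In Het, 5 of the 13 tested were called higher in rods and 2 lower, where 22.7% and 36.4% of all genes were. The median log2 difference of the 13 was 0.45, beside -0.08 over all genes. The higher ones included Dld, the E3 enzyme of the complex (1.18, SE 0.13), Pdhx, the protein that anchors E3 (1.06, SE 0.11), and Pdp2 (0.67, SE 0.15). The lower ones included Bola3, an iron-sulfur assembly factor (-0.75, SE 0.20). In KO the same counts, 5 higher and 2 lower, were found, beside 26.9% and 36.1% of all genes.

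Of the routes that feed or drain pyruvate, 6 of 14 tested were called higher in Het rods and 6 lower, beside 22.7% and 36.4% of all genes. Slc16a1, a plasma membrane carrier of lactate and pyruvate (1.61, SE 0.10), Ldha, a lactate dehydrogenase subunit (1.42, SE 0.17), and Me2, a mitochondrial malic enzyme that forms pyruvate (1.22, SE 0.11), were the 3 with the largest rise. Me3, another mitochondrial malic enzyme (-5.00, SE 0.34), Slc16a7, a monocarboxylate carrier (-4.70, SE 0.29), and Pcx, pyruvate carboxylase (-1.30, SE 0.35), fell most. In KO 7 were called higher and 4 lower, beside 26.9% and 36.1% of all genes. Pkm, pyruvate kinase, had the highest level of the list, 50510 ± 6123 in Het rods and 23938 ± 10895 in Het retina (SD, n = 3 each).

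For each kinase the 3 genes with the most similar profile were found by the Euclidean distance between gene-centred log2 values over the 12 libraries, among 17192 genes. For Pdk3 they were Hibadh, an enzyme of valine breakdown (0.18), Gabpb1, a subunit of the GA-binding transcription factor (0.19), and Fig4, a phosphoinositide phosphatase (0.21). For Pdk2 they were Tln1, which encodes talin (0.31), 2310022B05Rik (0.36) and Ski, a transcriptional co-repressor (0.37). For Pdk1 they were Kctd6 (0.60), Bicd1, a dynein adaptor (0.64), and Gm10516 (0.66). For Pdk4, whose values were near 0, the nearest were farther away: Pebp4 (1.15), Ctnnal1 (1.24) and Gpr137b (1.25).

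The next comparison set KO against Het within each fraction and addresses how these genes differ once both floxed alleles of Shp2 are targeted in rods. In rods, 1 of the 9 genes tested was called, Pdk1, which fell; over all 13055 genes 12.1% were called higher and 1.55% lower. From the values above, Pdk1 was at 202.1 to 232.2 in KO rods and 272.6 to 345.9 in Het rods, so the groups did not overlap. The log2 change was -0.59 (SE 0.14, limma adjusted p = 0.0105), and without any single library it lay between -0.69 and -0.54. The Muller glia markers, read as a sign of RNA from other cells, took 0.0103% to 0.0142% in KO rods and 0.0108% to 0.0191% in Het rods, overlapping ranges, and their part in the result was not tested.

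Changes in KO rods moved with the GC content of the transcript over all genes (Spearman correlation 0.70 between log2 change and GC across genes, which are not independent replicates). Genes within 1 percentage point of the GC content of Pdk1 (46.4%) had a median log2 change of -0.12. After the trend was removed from each library, the Pdk1 change was -0.37 and was not called, and over all genes 2.73% were called higher and 0.774% lower. In a single fit of all 12 libraries Pdk1 was at -0.57 and was not called, and 0 of all genes were called there, with limma. A test that first sets aside genes called lower in rods than in retina of Het animals does not include Pdk1, Pdk2, Pdp1 or Mpc1.

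The other 8 genes tested in rods were not called. Mpc2 was at 738.9 to 760.4 in KO rods and 895.4 to 1015.8 in Het rods, without overlap, and its log2 difference of -0.35 (SE 0.09, limma adjusted p = 0.0179) was under the fold limit. It was -0.48 after removal of the GC trend, since genes of like GC content (53.3%) had a median change of 0.22. Pdk3 was lower by -0.26 (SE 0.09) and Pdk2 higher by 0.30 (SE 0.10), each with a limma adjusted p of 0.0514 and no overlap between KO and Het rods. For Pdk2 the genes of like GC content (56.9%) had a median of 0.53, and with the trend removed the Pdk2 difference was -0.13, the opposite sign. For Pdk3 the genes of like GC content (47.7%) had a median of -0.07, and with the trend removed the difference was -0.08.

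Pdhb (-0.18, SE 0.08) and Dlat (-0.16, SE 0.08) were also lower in every KO rod library than in every Het rod library. Thus 6 of the 10 genes had groups that did not overlap in rods, 1 higher and 5 lower, where 25.3% of all genes tested were higher without overlap and 18.3% lower. With the GC trend removed, Pdhb (0.01), Dlat (0.04) and Pdp1 (0.07) changed sign. Pdp1 (-0.28, SE 0.13), Mpc1 (-0.33, SE 0.16) and Pdha1 (0.06, SE 0.09) had overlapping groups. With the trend removed Mpc1 was at -0.16, and Pdha1 was at 0.31 (SE 0.08, limma adjusted p = 0.0295), under the fold limit.

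In the kinase pool of rods, the Pdk3 share differed by -7.02 points in KO and the Pdk2 share by 8.83 points, with no overlap between the genotypes for either. The exact permutation p was 0.1 for each, the smallest that 3 libraries against 3 allow, so this design could not pass 0.05. Genes of like GC content had moved by a median of 0.53 for Pdk2 and -0.07 for Pdk3. With the GC trend removed from each library, an alternative chosen after seeing the data, the shares differed by 0.818 points for Pdk3 and 0.183 points for Pdk2. The Pdk3 share was then 60.7% to 61.3% in Het rods and 60.7% to 63.0% in KO rods, and that of Pdk2 32.9% to 34.4% and 33.0% to 34.8%, so the genotypes overlapped for both. The differences between rods and retina over both genotypes were 24.5 points for Pdk3 and -14.8 points for Pdk2 after the same step (exact permutation p = 0.005 for each). In the retina the Pdk3 share differed by -0.128 points (exact permutation p = 1.0). Of the 4 within-library ratios, none passed between KO and Het after adjustment. The ratio of Pdha1 to Pdhb came closest with a log2 difference of 0.13, a mean over both fractions (2-sided exact permutation p = 0.04, adjusted p = 0.16). In rods the log2 ratio ran from -1.19 to -1.15 in Het and from -0.99 to -0.84 in KO. In the retina the ranges overlapped, -0.18 to -0.15 in Het and -0.23 to -0.02 in KO. The mean difference was 0.16 and passed without KO retina replicate 1 (exact permutation adjusted p = 0.04). For Mpc1 to Mpc2 it was -0.10 and passed without KO rods replicate 2 (exact permutation adjusted p = 0.02). With the GC trend removed, kinases to E1 and E2 was at -0.16 and passed (exact permutation adjusted p = 0.04), and the other 3 did not pass. These ratio tests exchanged genotypes separately within rods and within retina. If a rod and a retina library came from the same lysate, they count as independent here, and the p-values are then too small. With 3 against 3 the smallest p would be 0.1, so no conclusion on genotype is drawn from them.

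In whole retina, 0 of the 10 genes were called, and 0% of 16863 genes by limma, with 140 genes (0.83%) at an unadjusted p under 0.05. Pdk1 was the exception in spread: 475.4 to 533.1 in KO retina and 590.4 to 787.3 in Het retina, without overlap, where 1.76% of all genes were lower without overlap. Its log2 difference was -0.40 (SE 0.17, limma adjusted p = 1.0). The other 9 lay between -0.08 and 0.19. The difference between the KO effect in rods and that in the retina was fitted as an interaction term with the 12 libraries together, and 0 of the 10 genes passed (adjusted p from 0.888 to 0.973 by limma), nor did any of 17192 genes, with 517 (3.01%) at an unadjusted p under 0.05. A Pdk1 change confined to rods was therefore not shown, its interaction being -0.15 (SE 0.20) on the log2 scale.

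**Figure D4:**
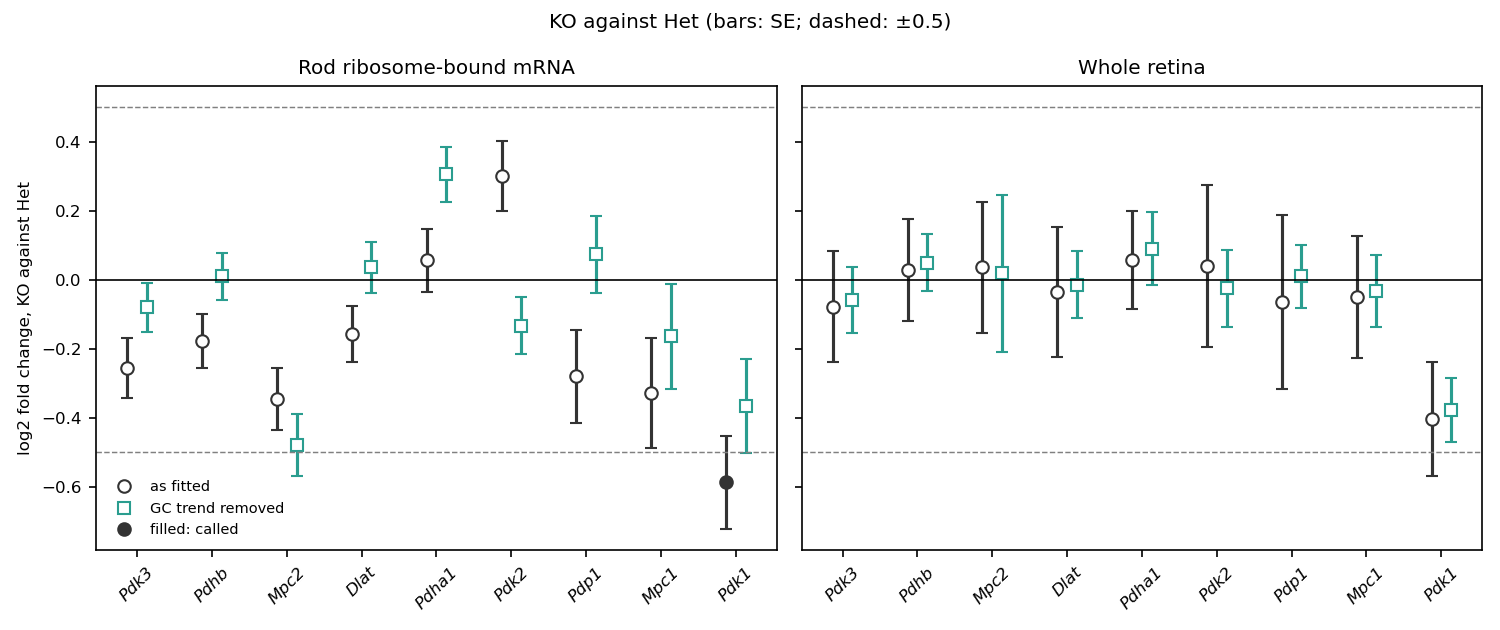
Log2 fold change of KO against Het with SE bars in rods (left) and whole retina (right), as fitted (circles) and after removal of the trend with GC content (squares). Filled symbols were called and dashed lines mark the fold limit of 0.5. Pdk1 in rods is the only filled symbol (-0.59 as fitted, -0.37 without the trend).

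Around these genes, KO rods had 3 of 10 tested routes of pyruvate called higher, where 12.1% of all genes were. They were Pkm (0.83, SE 0.09), Slc16a3, a lactate exporter (0.76, SE 0.19), and Pcx (0.71, SE 0.21). After removal of the GC trend they stood at 0.33, 0.35 and 0.21, and none was called. Of the 13 partners of the complex, 1 was called lower, where 1.55% of all genes were. It was Lipt2, an enzyme of lipoate attachment (-0.85, SE 0.19), and its value with the GC trend removed is not given here. Dld (-0.18, SE 0.09) and Pdhx (0.01, SE 0.09), both higher in rods than in retina, were not called between KO and Het. With the GC trend removed Dld was at 0.16, the opposite sign, and Pdhx at 0.25, and neither was called.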

How the data were processed

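RNA sequencing values of 12 libraries were taken from 1 table, and all its columns were mapped to a sample by title, with 0 columns of other samples. Groups and replicate numbers came from the labels. Libraries were made from cDNA amplified with a non-stranded kit. The submitters' processing notes name CASAVA 1.8.2, HISAT2, DESeq2, edgeR and GRCm39, with no role or order. The counting tool, its annotation and its use of strand are not given in the sources used here. The deposited values are whole-number signal rather than raw counts: totals within a fraction are nearly equal, so it was inferred that the authors multiplied each library by a factor and rounded. Reads behind them were estimated from the spacing of low integers, and these factors and the linear model were tested on simulated data.

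The design had foreseen a count model if the table held raw counts and limma if it held scaled values, so limma 3.58.1 in R 4.3.3 was used, with its trend and robust options, on log2 of the TMM-scaled value plus a pseudocount of 2. Fold changes are on that scale, which understates the change of low genes. Genes needed a value of 10 in 3 libraries and a sum of 15. Each comparison was fitted on its own groups, with p-values adjusted by the Benjamini-Hochberg method over all genes tested. Shares and ratios were tested by exact permutation. Their repeats with the GC trend removed, and the ratio with Pdp2, were added after the data were seen. Lengths and GC content came from GENCODE on GRCm38, matched by Ensembl identifier, and promoters from RefSeq on GRCm38.p6. Motifs were searched in 250 bases before each start. Analyses used Python 3.11.15, Biopython 1.88 and matplotlib 3.10.9.

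The labels do not say which libraries came from separate animals, so p-values measure the spread between libraries, which may be technical. Same-numbered Het rod and Het retina libraries deviated together (correlations 0.47, 0.41 and 0.25), so the numbers may pair them. The main fits and permutation tests did not use this pairing. Adding the replicate number as a block, an alternative, changed no call of a member between Het rods and Het retina. Named genes were the 10 members, Ptpn11, from each list the called genes with the largest changes and those with the highest levels, and the 3 nearest profiles of each kinase. Members, lists and tests were chosen with earlier results of these data known. The values of 1 gene of the partner list are not reported here.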

Additional observations from a re-analysis of the deposited data

How the results depend on the processing

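The alternatives were RLE or equal-total scaling, pseudocounts of 0.5 and 8, no filter or a filter of 50, removal of the GC trend, a replicate block, limma without trend and robust options, each library left out, and for KO against Het rods also rod-depleted genes removed or 1 fit of all 12 libraries. The difference in kinase share between rods and retina kept its direction and its side of the threshold for each of the 4 kinases in the 15 alternatives run on it, which were the longest transcript, the replicate block, the GC trend removed and the 12 libraries left out in turn. Removal of the GC trend from shares and ratios, and Pdp2 added to Pdp1, were chosen after seeing the data. For KO rods and retina, same-numbered libraries had correlations of 0.33, -0.01 and 0.18, positive for replicates 1 and 3 only. Lens markers rose with replicate number in both KO fractions. They took 0.436%, 1.05% and 4.92% in KO retina and 0.0112%, 0.0223% and 0.0789% in KO rods. The labels do not state whether these libraries are paired. Between genotypes the correlations were 0.18, 0.03 and 0.03 in rods and 0.40, -0.585 and -0.14 in the retina. The replicate block changed no call of a member in any comparison and moved no count by over 1.5 times (3890 higher and 6056 lower in Het rods against retina, 1679 higher and 233 lower in KO against Het rods). Where values moved and no cause is named, the cause was not tested.

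With equal totals, members called in rods against retina were 1 higher in Het, and 0 higher and 5 lower in KO, with 1168 and 1144 of all genes higher, and 584 of all genes were lower in KO against Het rods. Signs then changed in KO rods against retina for Dlat (-0.078), Mpc2 (-0.18), Lias (-0.054) and Bckdk (-0.017), and in KO against Het rods for Pdha1 (-0.051). The filter of 50, which tests fewer genes, left 3871 lower in Het and 3816 in KO rods against retina. In KO against Het rods, members called lower fell from 1 to 0 without the GC trend, without rod-depleted genes (which drops Pdk1 from the test) and in 1 fit of all libraries, where 0 genes were called in either direction. Without the GC trend, 357 genes were higher and 101 lower, or 399 and 112 with the block, and Dlat (0.036), Pdhb (0.010), Pdk2 (-0.13) and Pdp1 (0.074) changed sign with or without it. Without trend and robust options, 1 gene was lower in KO retina.

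With each library left out, members called lower in Het rods against retina were 2 to 4, and members called higher in KO rods against retina 2 to 4. All genes called in KO against Het rods were 970 to 1629 higher and 90 to 328 lower, in KO against Het retina 0 to 1 either way, and in the interaction 0 to 1 lower. Pdha1 ran from -0.13 to 0.044 in Het rods against retina, from -0.17 to 0.018 in KO rods against retina, and from -0.023 to 0.096 in KO against Het rods. Under the replicate block, the ratios that had passed between rods and retina each had an exact permutation adjusted p of 0.0417. With Pdp2 added, the log2 ratio of kinases to phosphatase was 0.25 in rods against retina and no longer passed. With the GC trend removed, kinases to E1 and E2 passed at -0.11 in rods against retina and at -0.16 in KO against Het, where kinases to Pdp1 (-0.13) and Mpc1 to Mpc2 (0.13) changed sign. The KO against Het tests of ratios count rod and retina libraries as independent, with the limit given above. With each library left out, kinases to E1 and E2 ran from -0.29 to -0.13 in rods against retina and from -0.10 to 0.050 in KO against Het. In KO against Het, kinases to Pdp1 ran from -0.039 to 0.22, Pdha1 to Pdhb from 0.10 to 0.16, and Mpc1 to Mpc2 from -0.10 to 0.0099.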

Other observations

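The sister complexes of pyruvate dehydrogenase, which share its E3 enzyme, were read from a list of 8 genes. In Het, 1 of the 8 was called higher in rods, where 22.7% of all genes were (Dbt, the E2 of the branched-chain complex, 0.58, SE 0.21) and 2 lower, where 36.4% of all genes were. These were Ppm1k, the phosphatase that activates the branched-chain complex (-4.24, SE 0.30), at 16.9 ± 6.94 in Het rods and 343 ± 65.8 in Het retina (SD, n = 3), and Bckdhb, its E1 beta subunit (-1.33, SE 0.20). In KO, 3 were called higher in rods and 2 lower, beside 26.9% and 36.1% of all genes. In KO against Het rods Bckdha, its E1 alpha subunit, was called higher (1.14, SE 0.35), as was Ogdhl (0.61, SE 0.11), where 12.1% of all genes were. Without the GC trend Bckdha and Ogdhl stood at 0.63 and 0.34 and were not called.

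Among 10 tested regulators of the kinase genes, 4 were called higher in Het rods than in Het retina and 0 lower, beside 22.7% and 36.4% of all genes. They were Hif1a, the oxygen-regulated factor (1.32, SE 0.15), Ppargc1a, a coactivator of mitochondrial genes (1.14, SE 0.13), Foxo3 (0.66, SE 0.10) and Epas1 (0.65, SE 0.14). In KO 6 were called higher and 0 lower, beside 26.9% and 36.1% of all genes. In KO against Het rods, 3 were called higher, where 12.1% of all genes were. They were Esrra, an orphan nuclear receptor (1.70, SE 0.22), Ppard (1.10, SE 0.23) and Stk11, the kinase LKB1 (0.81, SE 0.13). Esrra alone among these 3 was still called without the GC trend.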
